A study of Mus musculus with 11 samples.

Results

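Keratins are the intermediate filament proteins of epithelial cells. A filament is built from pairs of 1 acidic type I chain and 1 basic type II chain, and each layer of the epidermis and of the hair follicle makes its own pair: Krt5 with Krt14 in the basal layer, Krt1 with Krt10 above it, Krt6a and Krt6b with Krt16 and Krt17 in the follicle and in epidermis that has been injured, Krt8 with Krt18 in simple epithelia. Fibroblasts do not use keratins as their main filament, which is vimentin. The source of the keratin RNA in these sorted libraries was not tested. All symbols made of Krt, a number and at most 1 further letter were taken as members, without regard to their values, which gave 51 genes of the 47643 in the table. They were 28 type I genes, 27 of them clustered on chromosome 11 and Krt18 on chromosome 15, and 23 type II genes, all on chromosome 15.

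The libraries came from female mice of 9 to 12 weeks on a mixed background of 50% CD-1 and 50% C57Bl/6. Act mice overexpress activin from an INHBA transgene that the keratin 14 promoter drives, a promoter of basal keratinocytes and not of fibroblasts, and WT littermates were the controls. Live CD140a+ cells without CD45, CD11b and F4/80 were sorted from unwounded back skin (NS) or from excisional wounds 5 days after injury (5dw), and each library holds RNA pooled from 3 animals. The gate carried no epithelial marker, positive or negative. NS skin gave 3 libraries in each genotype, and wounds gave 3 from WT and 2 from Act, the latter numbered 1 and 3. RNA input was 100 ng for every NS library and 200 ng for every 5dw library. Input therefore cannot be separated from wounding, and its effect was not tested. Nothing in the labels ties a library to further separate sorts, so the p-values measure the spread between these pools. In the order of replicate numbers, "in turn" below gives replicates 1, 2 and 3 of a group.

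Values are RPKM, reads per gene length and mapped total, on 18649321 to 39702138 mapped reads per library. Pdgfra, which encodes CD140a, was at 29.6 to 65.3 RPKM and Col1a1 at 2092 to 10277 in all libraries. Ptprc, which encodes CD45, stayed at or under 0.0498. A list of 10 pan-immune markers summed to 16.2 to 20.5 RPKM in NS and 12.5 to 18.8 in 5dw. Macrophage markers summed to 12.9 to 20.5 RPKM in NS and 22.6 to 29.5 in 5dw. Keratinocyte markers were present too. The summed RPKM of 14 keratinocyte markers that are not keratins was 540 to 2143 in the 6 NS libraries and 49.6 to 332 in the 5 5dw libraries, and none of the 14 was at 0 in any group. In bulk RNA, fewer cells of a type and less RNA per cell cannot be told apart. WT 5dw replicate 3 stood apart from the other wound libraries in both respects: its marker sum was 332 against 49.6 to 109 in the other 4, and its keratin sum was 1551 against 187 to 492. Keratin fold changes within WT that moved by over 1.5 times without it are given both ways. Differences of ratios within WT and fold changes of other genes are given with all libraries only.

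Krt6a and Krt6b, on which several results turn, are near copies of each other, and this bears on how their reads can be told apart. Their coding sequences (GENCODE M21, GRCm38) were 97.8% identical, with 37 different bases among 1659 aligned, and the longest run of coding bases in common was 280, longer than a 100 bp read. The stretch of 100 bases within 1 exon that differs most is given for both genes, from exon 1 on the minus strand (Krt6a at chr15:101693826-101693925, Krt6b at chr15:101679801-101679900), with the 7 different bases in capitals.
Krt6a: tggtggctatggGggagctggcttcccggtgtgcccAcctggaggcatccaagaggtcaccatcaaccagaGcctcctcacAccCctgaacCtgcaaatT
Krt6b: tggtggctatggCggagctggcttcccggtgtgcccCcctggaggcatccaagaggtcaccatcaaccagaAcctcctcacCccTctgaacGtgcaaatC
A read from this window separates the genes, but 47.5% of all 100-base windows of the Krt6a transcript and 30.6% of those of Krt6b occur without any mismatch in another gene, mainly in each other. No source used here says how the authors' counting divided such reads, so the split between Krt6a and Krt6b is uncertain. Krt5 and Krt14 shared 3.81% and 2.88% of their windows. Krt16 shared 24.3%, mainly with Gm11597, which was listed at 0.172 RPKM or less in every library, and Krt8 shared 17.1% with the pseudogene Krt8-ps, which was listed at 0. Krt1, Krt10, Krt15, Krt17, Krt77 and Krt79 shared none.

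Taken by role, the keratins of the epidermis made up nearly all of the signal. In NS, the 3 basal keratins summed to 372 to 956 RPKM, the 7 suprabasal ones to 514 to 2922 and the 4 wound- and stress-inducible ones to 103 to 508. The 14 hair shaft keratins summed to 3.11 to 8.74 RPKM, of which Krt36 held 73.8 to 98.5%, the 9 of the inner root sheath and companion layer to 0.324 to 11.2, and the 4 of mucosa and cornea to 0.583 to 1.83. Of the 51 genes, 12 had a mean of at least 10 RPKM over the 11 libraries, 24 never reached 1 RPKM in any library, and 28 were at 0 in at least 1. The 21 members with at least 1 RPKM in at least 2 libraries entered the tests with all other genes that met the same limit, 11979 in all. Krt15, Krt24 and Krt78 met it only through NS libraries, Krt24 only through Act NS replicates 2 and 3, and no member only through 5dw libraries, so the counts below describe the genes tested and not all keratins.

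**Figure D1:**
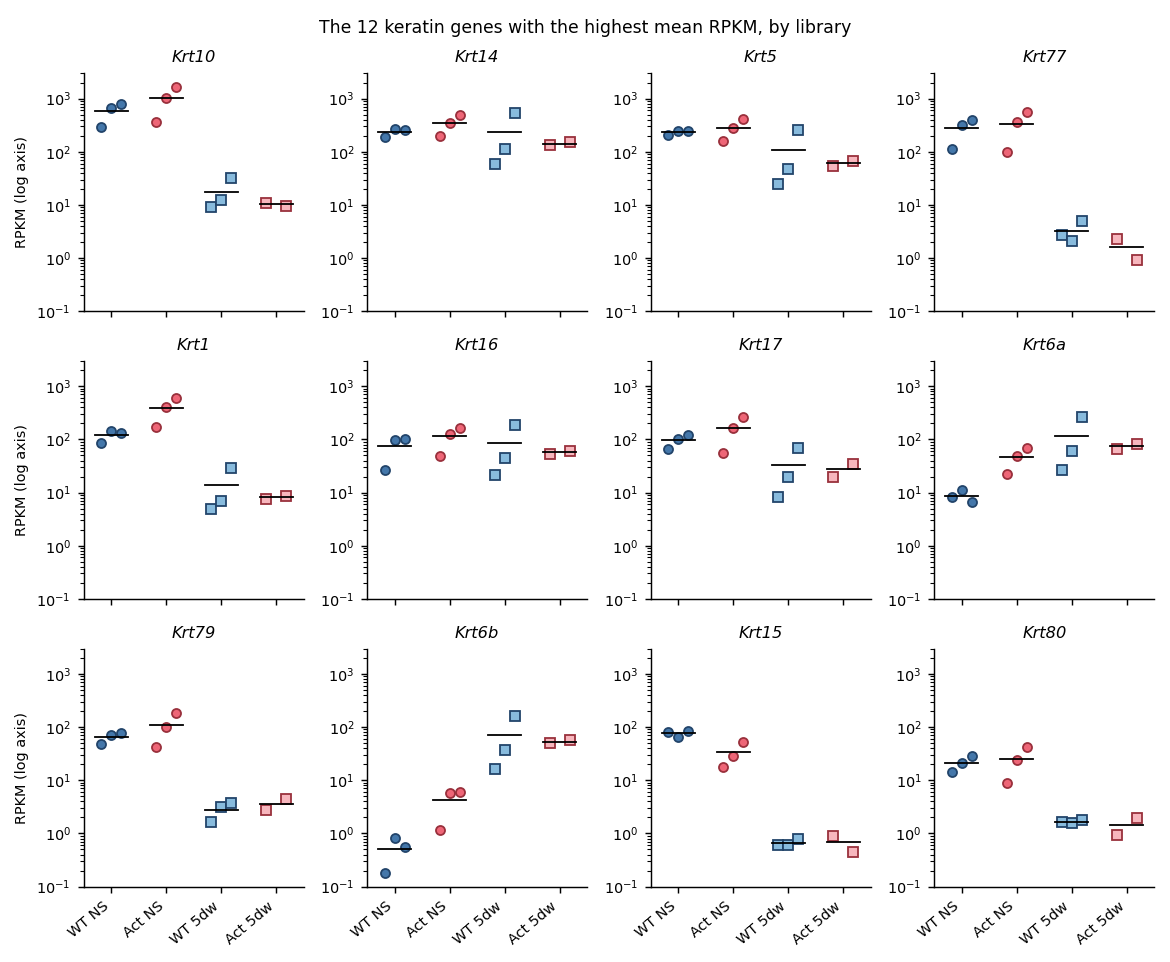
RPKM on a log axis of the 12 keratin genes with the highest mean, 1 panel per gene, with a point for each library (circles NS, squares 5dw, blue WT, red Act) and a line at the group mean. Krt10, Krt77, Krt1, Krt79, Krt15 and Krt80 have every 5dw library below every NS library, Krt6b has the reverse, and Krt14 and Krt16 overlap, with WT 5dw replicate 3 the highest square in both.

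The first comparison asks which keratins differ between sorted cells of a 5-day wound and of unwounded skin. In WT, 14 of 21 keratins passed the test: Krt6a and Krt6b rose (9.52% against 9.45% of all genes tested) and 12 fell, namely Krt1, Krt5, Krt10, Krt15, Krt17, Krt19, Krt20, Krt36, Krt77, Krt78, Krt79 and Krt80. In all, 66.7% of the members tested passed against 58.3% of all genes tested, with 57.1% lower against 48.8%. In Act, 13 of 21 passed (61.9% against 45.6% of all genes): Krt6b rose (4.76% against 9.04%) and 12 were lower (57.1% against 36.5%). Without Krt15, Krt24 and Krt78, 10 of 18 were lower in WT (55.6%) and 9 of 18 in Act (50.0%). With RPKM as deposited, the shares in WT lie near the background. The median log2 fold change of the 21 keratins was -1.69 in WT and -1.97 in Act, where that of all genes was -0.40 and -0.31. Krt24, at 0 in all wound libraries, enters these medians with a fitted value, and setting it to its bound left them at -1.69 and -1.97. Without the 3 keratins that were tested only through their NS values, the median of the other 18 was -1.33 and -1.06. Median-ratio scaling moves the median of all genes to 0.00 in both genotypes. Under it, 2 keratins were higher and 9 lower in WT (9.52% against 22.4% and 42.9% against 22.2% of all genes). In Act, 1 was higher and 9 lower (4.76% against 19.9% and 42.9% against 20.8%). Krt5, Krt17 and Krt20 were no longer called in either. The lower ones still included Krt15 and Krt78 in both genotypes and Krt24 in Act, which were tested only through NS libraries. Shares without them were not worked out under this scaling. Among all 11979 genes in WT, the same scaling turned 1132 higher and 5846 lower into 2684 higher and 2655 lower, and in Act 1083 higher and 4376 lower into 2384 and 2492. In both genotypes 11 keratins were lower, Krt15 and Krt78 among them, where 34.1% of all genes tested were, and the calls of Krt6a and Krt19 were made in WT alone and that of Krt24 in Act alone. Whether these 3 differ between the genotypes is the interaction, which was called for none of them.

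**Figure D2:**
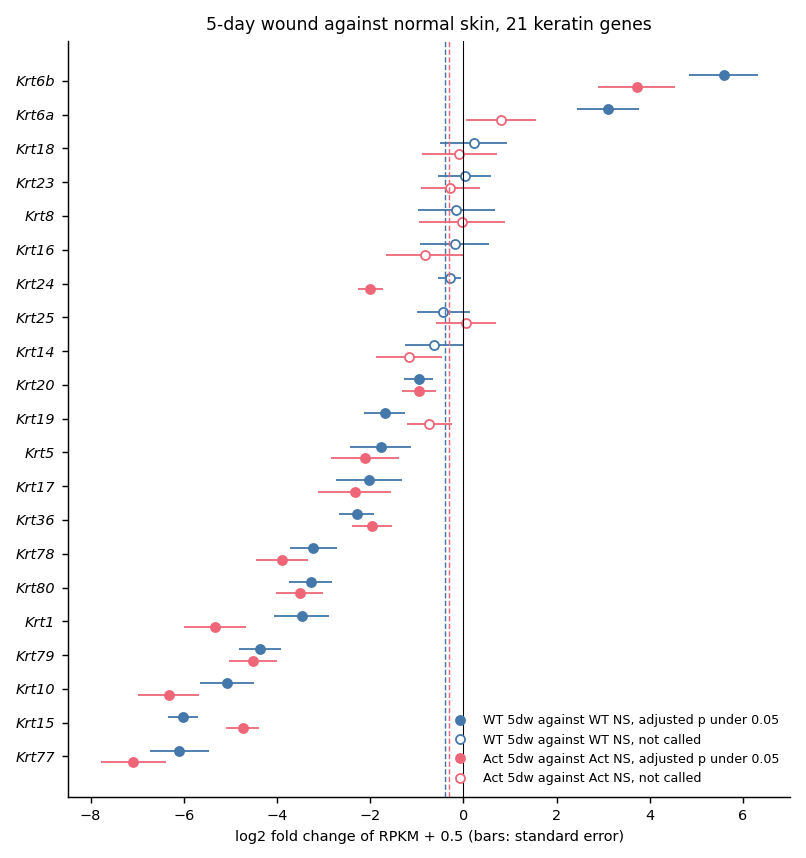
log2 fold change of RPKM + 0.5 from NS to 5dw for the 21 keratin genes tested, in WT (blue) and Act (red), with bars of 1 standard error, filled points for adjusted p under 0.05 and dashed lines at the median of all genes (-0.40 and -0.31). Krt77, Krt15, Krt10, Krt79 and Krt1 are filled and below 0 in both genotypes, Krt6b is filled and above 0 in both, and Krt14, Krt16, Krt8, Krt18, Krt23 and Krt25 are open in both.

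Krt14, the type I keratin of basal keratinocytes, did not pass the test. It was at 192, 264 and 259 RPKM in turn in WT NS, and at 57.8, 115 and 528 in WT 5dw. Wound replicate 3 lay above all WT NS libraries, and wound replicates 1 and 2 below them. Act NS had 194, 344 and 493 RPKM and Act 5dw 132 and 153, without overlap. The log2 fold change was -0.63 (SE 0.63, adjusted p = 0.408) in WT and -1.17 (SE 0.71, adjusted p = 0.198) in Act. Without WT 5dw replicate 3 both passed, at -1.53 (adjusted p = 0.00859) in WT and -1.17 (adjusted p = 0.0309) in Act. In Act the fold is the same, and the library left out enters only through the shared spread. The Act value also passed with only the compared groups (adjusted p = 0.0467). Without both WT libraries numbered 3, Act passed (adjusted p = 0.0430), and so did WT at -1.46 (adjusted p = 0.0291). Without WT 5dw replicate 1, the WT value was 0.06 (adjusted p = 0.935).

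Krt5, its type II partner, fell further than Krt14 in each genotype. It was at 205, 243 and 249 RPKM in WT NS and at 24.5, 48.2 and 253 in WT 5dw, so that only wound replicate 3 reached the NS level. In Act it went from 160, 278 and 410 to 55.0 and 66.0. The log2 fold change was -1.78 (SE 0.66, adjusted p = 0.0377) in WT and -2.12 (SE 0.74, adjusted p = 0.0364) in Act. The ratio of the partners is free of any factor that scales both. Krt5 stood at 0.806 to 1.06 times Krt14 in the 6 NS libraries and at 0.418 to 0.479 times in the 5 5dw libraries, a difference of -1.04 in mean log2 ratio (two-sided exact permutation test over 462 arrangements, p = 0.00433, the smallest it can give, adjusted over 9 ratios to 0.00557). Within genotypes the difference was -1.15 in WT and -0.95 in Act. The 9 pairs were chosen with earlier results of these data known, and they share libraries with the fold changes. Their p-values are therefore no independent support, least of all where the numerator alone separates NS from 5dw (Krt10, Krt15 and Krt79). WT 5dw replicate 3, with its far higher level, had a ratio of 0.479.

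Krt15, a type I keratin of basal cells that is best known from the stem cell region of the hair follicle, entered the test only through its NS libraries, where it was high. It was at 79.2, 63.9 and 84.1 RPKM in WT NS and at 0.61, 0.61 and 0.79 in WT 5dw. In Act it went from 18.1, 28.8 and 53.2 to 0.91 and 0.44. Every wound library lay far below every NS library. The fall was 113-fold in the means of WT and 49.4-fold in those of Act, or 75.5-fold in Act without Act 5dw replicate 1 (log2 fold change -6.02, SE 0.31, adjusted p = 5.33e-07 in WT and -4.74, SE 0.35, adjusted p = 6.27e-06 in Act). Since its high group let it into the test, these p-values are given as values only. On reads, 2106 to 4418 in WT NS became 42 to 54 in WT 5dw, although the wound libraries were deeper. WT 5dw replicate 3, highest for Krt14, was no exception here, with 54 reads. The log2 ratio of Krt15 to Krt14, which used no filter, was lower in 5dw by 4.49 in the mean (exact permutation p = 0.00433, adjusted p = 0.00557). The difference was -5.39 in WT and -3.57 in Act. The WT 5dw libraries stood at -5.71, -6.69 and -8.68 in turn, against a WT NS mean of -1.64. Replicate 3 thus enlarged the WT difference.

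Of the 7 suprabasal keratins, 5 were tested and were lower in both genotypes, where 34.1% of all genes tested were. The 5 include Krt78, which was tested only through its NS libraries. Krt10, the type I keratin of differentiating keratinocytes, was the most abundant keratin in every NS library, at 297, 665 and 789 RPKM in WT and 359, 1045 and 1685 in Act. Wounds held 9.29, 12.3 and 31.9 RPKM for WT, and 10.9 and 9.56 for Act. No wound library came near the NS range. The fold was 32.7 in the means of WT, or 54.1 without WT 5dw replicate 3 (log2 fold change -5.08, SE 0.58, adjusted p = 6.35e-05) and 101 in those of Act (-6.32, SE 0.65, adjusted p = 4.87e-05).

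Krt1, the type II partner of Krt10, was at 85.8, 142 and 134 RPKM in WT NS and at 4.85, 7.03 and 29.5 in WT 5dw. In Act it went from 171, 402 and 613 to 7.65 and 8.68. No wound library reached the NS range in either genotype. The log2 fold change was -3.47 (SE 0.59, adjusted p = 0.00068) in WT, -4.22 without WT 5dw replicate 3 (adjusted p = 9.69e-05), and -5.33 (SE 0.66, adjusted p = 0.00015) in Act, and the difference between these 2 values was not called (interaction -1.86, SE 0.89, adjusted p = 0.999, and -1.12 without WT 5dw replicate 3, adjusted p = 1.00). Krt1 fell less than Krt10: its share of Krt10 was 0.169 to 0.477 in NS and 0.523 to 0.923 in 5dw, a difference of 1.27 in mean log2 ratio (exact permutation p = 0.00433, adjusted p = 0.00557).

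Krt77, a type II keratin that is close to Krt1 and is made in differentiating epidermis and in sweat ducts, fell in both genotypes. It was at 114, 318 and 403 RPKM in WT NS and 99.9, 355 and 559 in Act NS, and wounds gave 2.68, 2.11 and 5.05 for WT and 2.29 and 0.93 for Act. NS and 5dw did not overlap in either genotype. The means fell 84.8-fold in WT and 210-fold in Act, or 363-fold in Act without Act 5dw replicate 1. Its log2 fold change was -6.09 (SE 0.63, adjusted p = 3.08e-05) in WT and -7.08 (SE 0.70, adjusted p = 3.87e-05) in Act. Krt78, a type II keratin of upper epidermal layers, went from 2.87 to 15.8 RPKM in the NS libraries to 0.04 to 0.29 in those of 5dw (log2 fold change -3.22 in WT, adjusted p = 0.000397, and -3.89 in Act, adjusted p = 0.000381, of which the same holds as for Krt15, since only its NS libraries passed the filter). Krt80, a type II keratin linked to late differentiation, went from 8.98 to 42.4 RPKM to 0.93 to 1.98 (log2 fold change -3.28 in WT, adjusted p = 0.000193, and -3.52 in Act, adjusted p = 0.000384). Of the other 2 suprabasal members, Krt9, the keratin of palms and soles, did not pass 0.54 RPKM, and Krt2 reached 5.93 RPKM in Act NS replicate 3, 0.715 or less in the other NS libraries and 0 in all 5 wound libraries.

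The inducible type II keratins went the other way. Krt6a was at 8.35, 11.1 and 6.50 RPKM in turn in WT NS and at 26.9, 61.5 and 265 in WT 5dw. All 3 wound libraries lay above all 3 WT NS libraries, and the log2 fold change was 3.10 (SE 0.67, adjusted p = 0.00272). It was 2.20 without WT 5dw replicate 3 (adjusted p = 0.00372) and 3.84 without WT 5dw replicate 1 (adjusted p = 0.000839). In Act it was at 22.0, 48.2 and 70.1 RPKM in NS and at 66.7 and 82.9 in 5dw, with overlap, and the log2 fold change of 0.81 (SE 0.75, adjusted p = 0.395) did not pass. The interaction was -2.29 (SE 1.01, unadjusted p = 0.0448, adjusted p = 0.999), so a difference between the genotypes was not called. It was -1.39 without WT 5dw replicate 3 and -3.03 without WT 5dw replicate 1, not called in either.

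Krt6b was the only keratin tested whose 5dw libraries all lay above all NS libraries. It was at 0.18, 0.82 and 0.56 RPKM in WT NS and at 16.3, 37.3 and 163 in WT 5dw (log2 fold change 5.58, SE 0.73, adjusted p = 0.00014). In Act it rose from 1.15, 5.76 and 5.94 to 49.3 and 56.1 (3.71, SE 0.82, adjusted p = 0.00406). The means rose 139-fold in WT, or 51.6-fold without WT 5dw replicate 3, and 12.3-fold in Act. The WT log2 fold change was 4.68 without that library (adjusted p = 0.000207) and 6.32 without WT 5dw replicate 1 (adjusted p = 0.000127), and the Act value 3.06 without Act NS replicate 1 (adjusted p = 0.00989). Krt6b stood at 0.0213 to 0.120 times Krt6a in NS and at 0.604 to 0.739 times in 5dw. This pair was chosen after its values were seen and was not tested, and shared reads bear on both of its terms. Over all 21 keratins, 1 lay above without overlap (4.76% against 8.45% of all genes tested) and 9 lay below (42.9% against 38.9%), which are Krt1, Krt10, Krt15, Krt24, Krt36, Krt77, Krt78, Krt79 and Krt80. Without Krt15, Krt24 and Krt78 it was 6 of 18 (33.3%), under the share of all genes.

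Krt16, the type I keratin that pairs with the Krt6 chains, did not follow them in level. It was at 27.1, 98.2 and 101 RPKM in WT NS and at 21.6, 45.2 and 186 in WT 5dw. In Act it was at 49.2, 125 and 167 in NS and at 53.7 and 60.2 in 5dw. NS and 5dw overlapped in both genotypes, and the log2 fold change was -0.19 (SE 0.74, adjusted p = 0.84) in WT and -0.82 (SE 0.83, adjusted p = 0.439) in Act. The WT value turned to 0.27 under median-ratio scaling and was -1.04 without WT 5dw replicate 3, not called in either. Against Krt14 it was at 0.141 to 0.390 in NS and 0.352 to 0.408 in 5dw. That difference of 0.39 in mean log2 ratio did not pass (exact permutation p = 0.0649, adjusted p = 0.0731), but it passed without WT NS replicate 3 (0.47, adjusted p = 0.0357) or without WT 5dw replicate 3 (0.42, adjusted p = 0.0214). Without WT NS replicate 1, the lowest library at 0.141, it was 0.18 (adjusted p = 0.134).

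Krt17, an inducible keratin and also a constant keratin of the hair follicle, fell. It was at 67.3, 102 and 121 RPKM in WT NS against 8.14, 19.9 and 69.9 in WT 5dw, and at 56.1, 165 and 265 in Act NS against 19.7 and 35.1 in Act 5dw. In WT, replicate 3 of 5dw lay just above replicate 1 of NS. The log2 fold change was -2.03 (SE 0.70, adjusted p = 0.0287) in WT and -2.34 (SE 0.79, adjusted p = 0.0319) in Act. Its log2 ratio to Krt14 was lower by 1.31 in 5dw (exact permutation p = 0.00433, adjusted p = 0.00557), while that of Krt6a to Krt14 was higher by 2.85 with the same p-values, at 3.73 within WT and 1.98 within Act. The 4 inducible keratins thus did not move as 1 group.

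The calls of Krt5, Krt17 and Krt20 depended on single libraries and on settings. Beside median-ratio scaling, all 3 ended without the filter in both genotypes (adjusted p = 0.0886 and 0.0871 for Krt5, 0.0711 and 0.0783 for Krt17, 0.0589 and 0.107 for Krt20). With array weights Krt5 ended in both (0.167 and 0.0774), Krt17 in WT (0.0771) and Krt20 in Act (0.0618), and with only the compared groups Krt5 in WT (0.0651) and Krt20 in Act (0.0913). Without WT 5dw replicate 3 the WT values were -2.73 for Krt5 (adjusted p = 0.000399) and -2.83 for Krt17 (adjusted p = 0.00369), and without WT 5dw replicate 1 they were -1.06 (adjusted p = 0.149) and -1.32 (adjusted p = 0.115). In WT, Krt5 missed the threshold without any 1 of the 3 WT NS libraries, of WT 5dw replicates 1 and 2, or of the Act 5dw libraries (highest adjusted p = 0.149), and Krt17 without WT NS replicate 2 or 3 or WT 5dw replicate 1 or 2 (0.115). Krt20 missed it without WT NS replicate 2 or 3 or WT 5dw replicate 1 or 3 (0.0927). In Act, Krt5 and Krt17 missed it without Act NS replicate 2 or 3 or either Act 5dw library (0.145 and 0.175), and Krt20 in 14 of 22 alternatives, with -0.34 (adjusted p = 0.488) without Act 5dw replicate 3 and -1.57 (adjusted p = 0.00946) without replicate 1. Without Act NS replicate 1, the Act falls of Krt10, Krt17, Krt77, Krt78 and Krt80 grew to -6.95, -2.97, -7.80, -4.54 and -4.11 on the log2 scale.

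**Figure D3:**
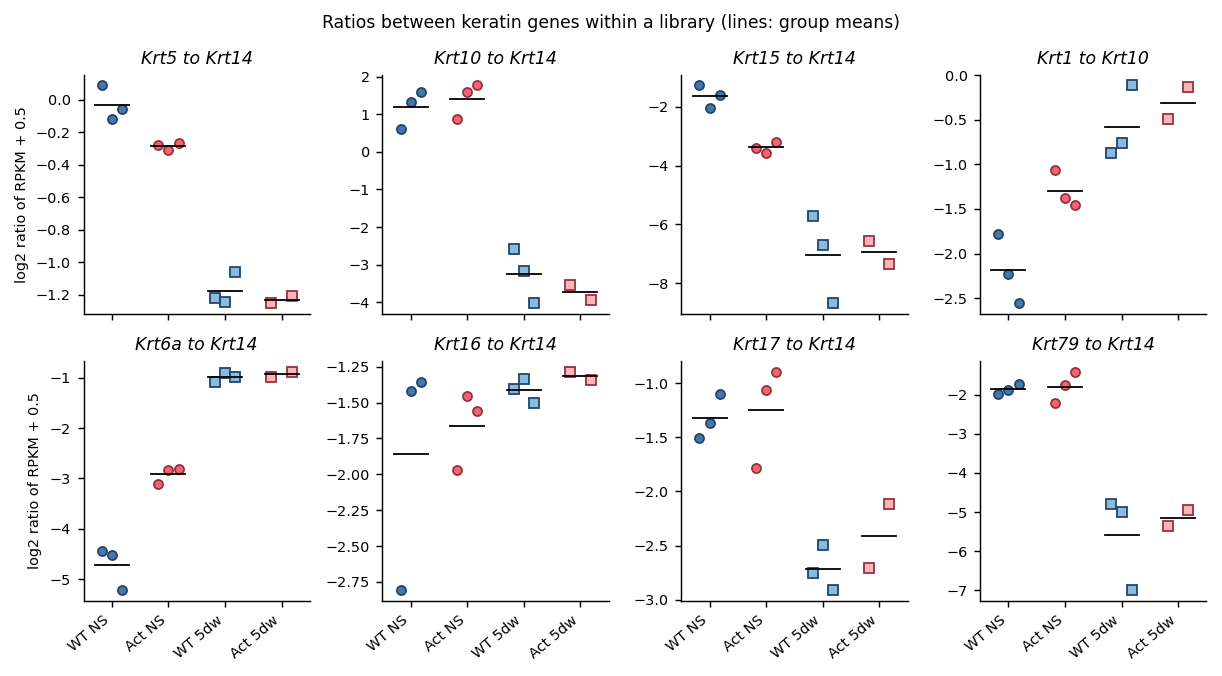
log2 ratio between keratin pairs within each library, on values of RPKM + 0.5, with a point for each library and a line at the group mean (circles NS, squares 5dw). In all panels but that of Krt16 to Krt14, every 5dw library lies apart from every NS library, above for Krt1 to Krt10 and Krt6a to Krt14 and below for the rest.

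The make-up of the keratin RNA differed between skin and wound. In the NS libraries Krt1 and Krt10 held 32.9 to 50.0% of the summed keratin RPKM, Krt5 and Krt14 19.6 to 34.1%, Krt77 8.35 to 17.5%, and Krt6a, Krt6b and Krt16 together 3.06 to 6.05%. In the 5dw libraries Krt5 and Krt14 held 44.05 to 50.3%, Krt6a, Krt6b and Krt16 34.6 to 41.0%, Krt1 and Krt10 3.71 to 7.56% and Krt77 0.190 to 1.43%. Krt17 held 4.69 to 5.79% and 4.35 to 7.13%, with overlap. The order of the leading keratins was the same in all 5 wound libraries, with Krt14 highest, then Krt6a, then Krt5. The sum itself fell from 1163 to 4600 RPKM in NS, which is 0.427 to 1.69% of all RPKM, to 187 to 1551 in 5dw, or 0.0747 to 0.612%. Those 2 ranges overlap only through WT 5dw replicate 3.

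**Figure D4:**
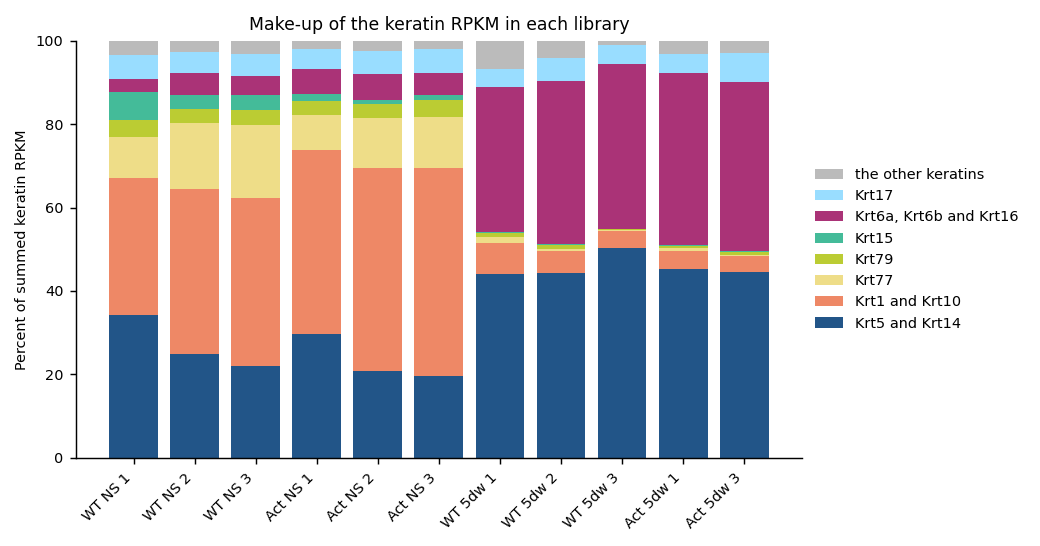
Percent of the summed RPKM of 51 keratin genes held by each keratin or group of keratins, in stacked bars, 1 bar per library. The 6 NS bars are led by Krt1 and Krt10 (32.9 to 50.0%), while the 5 wound bars are nearly filled by Krt5 with Krt14 (44.05 to 50.3%) and by Krt6a, Krt6b and Krt16 (34.6 to 41.0%).

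Other epidermal genes moved in these libraries too, as did markers of other cell types, and their part in the keratin results was not tested. Beside the counts that follow, 48.8% of all genes tested were lower in WT and 36.5% in Act. Of the 14 keratinocyte markers, 13 fell in WT and 13 in Act. Only Dsg3, a desmosomal cadherin, was not called in either (log2 fold change -0.81 and -1.10). Dsg3 was at 2.61, 5.38 and 4.91 RPKM in turn in WT NS and at 0.74, 1.48 and 6.92 in WT 5dw. Only wound replicate 3 lay above WT NS, and the other wound replicates lay below it. The median log2 fold change of the 14 markers was -2.83 in WT and -3.26 in Act. Sfn, an epithelial 14-3-3 protein, went from 165 to 608 RPKM in NS to 13.0 to 99.4 in 5dw. Among 21 genes of epidermal adhesion 14 fell in WT and 15 in Act, and all 10 epidermal transcription factors tested fell in both. Of 21 cornified envelope and late differentiation genes tested, 15 fell and 1 rose in WT, and 19 fell in Act. All 5 Schwann cell markers tested of 8 were lower in both genotypes (median log2 fold change -1.59 in WT and -1.63 in Act). So were both skeletal muscle markers tested of 8. Of 4 endothelial markers tested, 1 was higher and 1 lower in WT, and 2 were higher and 1 lower in Act. Pecam1, an endothelial adhesion molecule, was among the higher ones (1.40 and 1.45). The endothelial list summed to 23.4 to 40.8 RPKM in NS and 22.4 to 29.5 in 5dw. Of 4 macrophage markers tested, 2 were higher in WT, and 1 was higher and 1 lower in Act. Of 6 pericyte markers tested, 1 was higher and 2 lower in WT, and 2 were higher and 2 lower in Act. The cornified envelope gene that rose was Sprr2a1, a small proline-rich envelope protein (log2 fold change 2.04, adjusted p = 0.00647). It was at 1.13, 1.15 and 6.81 RPKM in turn in WT 5dw, so replicate 3 enlarged this value. Dsg3, Sprr2a1 and Pecam1 were named after their values were seen, and the lists share genes, Sfn among them.

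Set against the keratinocyte marker sum of the same library, the keratins split. Krt14 stood at 0.219 to 0.359 per unit of that sum in NS and at 1.17 to 1.59 in 5dw, Krt6a at 0.00550 to 0.0408 and 0.542 to 0.798, and Krt16 at 0.0463 to 0.0911 and 0.435 to 0.559. Krt5 was at 0.191 to 0.349 and 0.495 to 0.760, and Krt17 at 0.0918 to 0.123 and 0.164 to 0.321. All 5 were higher in every wound library on this scale. Krt10 was at 0.506 to 0.786 in NS and 0.0874 to 0.187 in 5dw, Krt77 at 0.185 to 0.340 and 0.00853 to 0.0541, and Krt15 at 0.0207 to 0.135 and 0.00237 to 0.0124, all lower in every wound library. Krt1, at 0.113 to 0.317 and 0.0725 to 0.0979, was lower as well. These are descriptions of a ratio chosen with the values known. A sum of RPKM gives most weight to its most abundant genes. Whether it follows keratinocyte content was not tested.

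**Figure D5:**
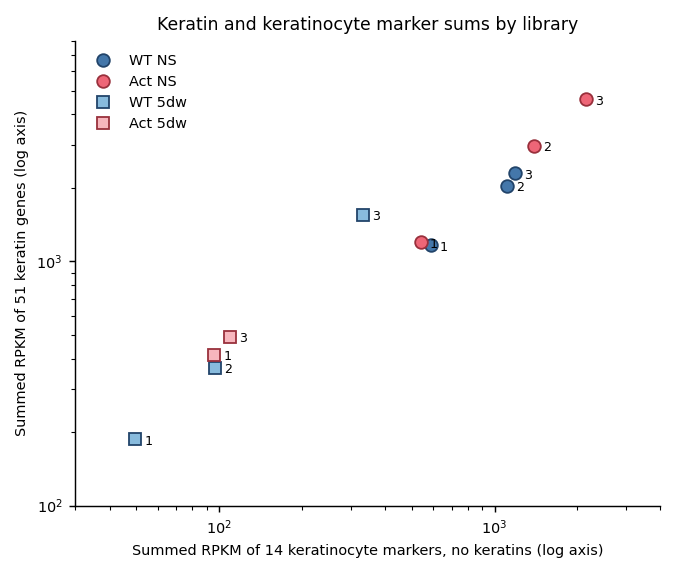
Summed RPKM of 51 keratin genes against the summed RPKM of 14 keratinocyte markers that are not keratins, both on log axes, 1 point per library with its replicate number. The NS libraries run from 540 to 2143 on the marker axis and the wound libraries from 49.6 to 332, with WT 5dw replicate 3 between the other wound libraries and NS.

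The keratins of appendages and simple epithelia were low and mostly fell or stayed under the limit for testing. Krt79, a type II keratin of the follicle opening and the sebaceous duct, was the exception in level, at 48.4, 72.1 and 78.4 RPKM in WT NS and 41.7, 101 and 185 in Act NS. WT wounds held 1.62, 3.11 and 3.68 and Act wounds 2.74 and 4.52, far under every NS library (log2 fold change -4.37, adjusted p = 3.62e-05 in WT and -4.52, adjusted p = 8.76e-05 in Act). Its log2 ratio to Krt14 was lower by 3.59 in 5dw (exact permutation p = 0.00433, adjusted p = 0.00557). Sebaceous gland markers fell beside it: of 8 genes 6 were tested, and 5 were lower in WT and 4 in Act. Their sum was 6.99 to 49.4 RPKM in NS and 7.18 to 8.13 in 5dw, of which Soat1, a cholesterol-esterifying enzyme that was not called, held 3.37 to 8.59 and 6.27 to 7.38. The part of these cells in the Krt79 result was not tested. Krt36, a type I hair shaft keratin, was at 2.29 to 7.20 RPKM in NS and 0.40 to 1.31 in 5dw (log2 fold change -2.30, adjusted p = 0.000634 in WT and -1.97, adjusted p = 0.00397 in Act), and the other 13 hair shaft keratins did not pass 0.606 RPKM in any library.

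Krt19, a type I keratin of simple epithelia and of the follicle bulge, was at 7.63, 6.85 and 6.46 RPKM in WT NS and 1.17, 2.17 and 2.25 in WT 5dw (log2 fold change -1.69, SE 0.43, adjusted p = 0.00646). In Act it was at 1.94, 7.79 and 5.51 against 1.39 and 4.21, with overlap (-0.73, SE 0.48, adjusted p = 0.236). The fall in Act passed with array weights (-1.25, adjusted p = 0.0266) and without both NS libraries numbered 1 (-1.24, adjusted p = 0.0291). The Act value was -1.24 and passed without Act NS replicate 1, and it was -0.36 without Act NS replicate 2, -0.07 with Act 5dw replicate 1 left out and -1.39 with replicate 3 left out, none of these 3 called. Krt20, a keratin of gut epithelium and of Merkel cells, was at 1.63 to 3.21 RPKM in NS and 0.43 to 1.67 in 5dw (-0.97, adjusted p = 0.0234 in WT and -0.96, adjusted p = 0.0482 in Act). Krt23, a type I keratin, was at 1.84 to 12.4 RPKM in NS and 4.05 to 7.72 in 5dw, wholly within the NS range (0.02, adjusted p = 0.974 and -0.28, adjusted p = 0.747).

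Krt8 and Krt18, the partners of simple epithelia, showed a pattern of single libraries rather than of groups. Krt8 was at 4.60 RPKM in WT NS replicate 3 and at 2.56 in WT 5dw replicate 3, and at 0.03 to 0.16 in the other 9 libraries. Krt18 was at 3.39 and 2.19 RPKM in the same 2 libraries and at 0.49 or less in the others. Both WT libraries numbered 3 thus carried the pair at similar levels, in skin and in wound, and the Act libraries numbered 3 did not. In the other 9 libraries both lay under the pseudocount of 0.5, so their log2 ratio says little (0.18 higher in 5dw, exact permutation p = 0.325, adjusted p = 0.325), and the linear ratio of Krt18 to Krt8 ran from 0 to 1.61 in NS and from 0 to 3.87 in 5dw. The pattern was picked after the values were seen and was not tested.

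Between the genotypes no keratin passed. In unwounded skin, 0 of 21 were called by limma-trend (0.0167% of all genes were), 5 had an unadjusted p under 0.05 (23.8% against 6.88% of all genes), a count that was 2 without Act NS replicate 3, 3 without Act NS replicate 2 or WT NS replicate 1 and 8 without Act NS replicate 1. Without Krt24 it was 4 of 20. A test by limma-voom on reads worked out from RPKM also called 0, with 4 under 0.05 unadjusted. In 5-day wounds 0 of 21 were called (0.0334% of all genes) by limma-trend and 0 by limma-voom, with 0 under 0.05 unadjusted in both (3.22% of all genes by limma-trend). The interaction of wounding and genotype was called for 0 of 21 (0% of all genes), with 3 under 0.05 unadjusted by limma-trend (14.3% against 3.34%, or 2 of 20 without Krt24) and 1 by limma-voom. That count of 3 was 8 without Act NS replicate 1, 5 without WT 5dw replicate 1, 1 without Act NS replicate 2 or 3, 2 without any 1 of the 3 WT NS libraries, WT 5dw replicate 3 or either Act 5dw library, and 6 with a replicate block. These comparisons share libraries with those of wounding, and their values are given as separate descriptions.

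The 5 keratins with an unadjusted p under 0.05 in unwounded skin were those whose Act and WT libraries did not overlap. Krt1, Krt6a, Krt6b and Krt24 lay higher in all 3 Act NS libraries (19.0% of the keratins tested against 0.993% of all genes, or 3 of 20 without Krt24, which passed the filter only through 2 of these libraries), and Krt15 lower (4.76% against 7.98%). From the values above, the means of Act NS were 3.28 times those of WT NS for Krt1, 5.42 times for Krt6a and 8.26 times for Krt6b, and Krt15 was 2.27 times higher in WT NS. The log2 fold changes were 1.56 (SE 0.59, adjusted p = 0.688), 2.25 (SE 0.67, adjusted p = 0.679), 2.04 (SE 0.73, adjusted p = 0.679) and -1.30 (SE 0.31, adjusted p = 0.577). That of Krt6b was 2.69 without Act NS replicate 1 (adjusted p = 0.632). As a ratio to Krt14, Krt6a was at 0.0251 to 0.0434 in WT NS and 0.114 to 0.142 in Act NS, and Krt15 at 0.242 to 0.412 and 0.0836 to 0.108, neither with overlap. With 3 libraries against 3 an exact test cannot go under 0.1, so these ratios are not tested between genotypes.

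Krt24, a type I keratin of differentiating epithelium, had the lowest adjusted p between genotypes in unwounded skin, but it was tested only because it reached 1 RPKM in 2 Act NS libraries. It was at 0.17, 0.09 and 0.09 RPKM in WT NS, which is 8, 3 and 5 reads, and at 0.81, 1.91 and 2.03 in Act NS, or 36, 85 and 86 reads. It was at 0 in all 5 wound libraries. Against WT NS the log2 fold change was 1.70 (SE 0.24, adjusted p = 0.0676), with an adjusted p of 0.00411 to 0.479 over the alternatives, 6 of which passed, such as without Act NS replicate 1 (adjusted p = 0.00466). Without Act NS replicate 2 or 3 it was not tested. Its group of high values thus decided that it was tested, and its p is no support for a difference. The same holds for wounding in Act, where its adjusted p was 0.000263. Measured against a floor of 3 reads per wound library, its mean was at least 22.2-fold lower in Act 5dw than in Act NS. In WT, with so few reads in NS, it was not called by limma-trend (adjusted p = 0.305), while limma-voom called it (adjusted p = 0.00515).

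The most abundant keratins gave wide intervals between the genotypes. In NS the difference of Act from WT was 0.44 (95% interval -0.95 to 1.84) for Krt14, 0.19 (-1.27 to 1.64) for Krt5 and 0.67 (-0.61 to 1.96) for Krt10 on the log2 scale. Act NS replicate 1 was the lowest Act NS library for each, at 194, 160 and 359 RPKM, and lowered these differences. The intervals do not show equal levels, and they come from a fit that does not use the replicate number. Between same-numbered NS libraries, Krt10 and Krt14 were higher in Act in every pair. Krt5 was higher in Act in replicates 2 and 3 and lower in replicate 1. These pairs were not tested. The keratinocyte marker sum was 586 to 1183 in WT NS and 540 to 2143 in Act NS, and 0 of the 14 markers were called between them.

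Of the 9 keratins of the inner root sheath and companion layer, all but Krt74 had their highest value in Act NS replicate 2. Krt25 was at 3.21 RPKM there, Krt71 at 3.27, Krt28 at 1.56 and Krt27 at 1.42, and the highest value of any of these in another library was 1.30, of Krt25 in Act 5dw replicate 1. Inner root sheath keratins of both types build the sheath that moulds the growing hair. The 9 keratins of that role summed to 11.2 RPKM in Act NS replicate 2, 0.324 to 2.55 in the other NS libraries and 0.207 to 2.78 in 5dw. Only Krt25 entered the tests, and it was not called in either wounding comparison.

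The promoter windows of RefSeq (GRCm38.p6) were matched for 35 of the 51 keratins, and in 32 of these the start lay within 100 bases of the GENCODE M21 gene start. Of the 32, 17 (53.1%) held the letters TATAAA on either strand in the 250 bases before the start, against 12.4% of all 32851 promoter windows. On the gene's own strand, 12 of 15 began 25 to 32 bases before the start. The last 60 bases before the start are shown for 4 keratins that fell, with TATAAA in capitals: Krt10 (chr11:99389365-99389424), Krt5 (chr15:101712906-101712965), Krt77 (chr15:101869706-101869765) and Krt79 (chr15:101940325-101940384), all on the minus strand.
Krt10: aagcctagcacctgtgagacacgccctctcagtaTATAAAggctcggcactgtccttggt
Krt5: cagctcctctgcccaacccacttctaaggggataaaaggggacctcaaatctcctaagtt
Krt77: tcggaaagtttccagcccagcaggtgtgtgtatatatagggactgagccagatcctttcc
Krt79: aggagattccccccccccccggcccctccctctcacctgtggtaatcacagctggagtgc
Of the 4, only Krt10 held these letters in the 250 bases searched. Keratins that fell together therefore differed in this feature, and no match says only that these letters are not in the window.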

How the data were processed

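RNA of live CD140a+ CD45- CD11b- F4/80- cells, pooled from 3 animals per library, was sequenced as poly-A libraries with 100 bp single reads. The authors aligned reads to GRCm38 in CLC Genomics Workbench 12 and deposited RPKM values per gene symbol. The authors tested with edgeR, which was not run here. The library numbered 2 of Act 5dw, which the authors excluded at quality control, was not analysed here.

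The keratins, the gene lists and the tests were chosen with earlier results of these data known. Values were log2(RPKM + 0.5) for the 11979 genes that reached 1 RPKM in 2 or more libraries, fitted with limma-trend (limma 3.58.1, R 4.3.3) with 1 mean per group over 11 libraries and 7 residual degrees of freedom. p-values were Benjamini-Hochberg adjusted over all genes tested, with a threshold of 0.05, and the fit was tested on simulated data. Fold changes on this scale understate those of low genes. Ratios of log2(RPKM + 0.5) were compared by two-sided exact permutation tests. The rule for naming took the 20 keratins with the highest mean, Krt8 and Krt18, and left the rest to ranges by role. The low ones among them (Krt2, Krt20, Krt23, Krt25, Krt36, Krt78 and Krt80) are given by range instead of by library. Krt9, Krt24, Krt27, Krt28, Krt71 and the pattern over both WT libraries numbered 3 were picked with values seen.

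Mapped totals (18649321 to 39702138) were worked out as the numbers that turn RPKM times GENCODE M21 exon length into whole reads in every library, within 0.03, for 73.6% of 25117 genes above 0. Of the 51 keratins, 33 came out whole, and reads are printed only for these. Intervals are from the fit, and read floors cover counting error only. Same-numbered libraries deviated together from their group means in WT NS and WT 5dw (correlations of 0.188, 0.120 and 0.109 over genes) and in WT NS and Act NS (0.554, 0.423 and 0.334), less so in Act NS and Act 5dw (0.0187 and 0.143), and not in every pair of WT 5dw and Act 5dw (-0.0777 and 0.189) or WT NS and Act 5dw (-0.124 and 0.158). Same-numbered Act NS and WT 5dw libraries correlated at 0.222, 0.195 and 0.263. Of all 15 same-numbered pairs, 12 were over 0.1, against 5 of 30 pairs with different numbers (highest 0.313). The 2 libraries of Act 5dw deviate by equal and opposite amounts from their mean. Their correlations with any other library therefore mirror each other and are not separate evidence. The labels give no shared animal or day. The pairing of WT NS with WT 5dw and with Act NS, and of Act NS with WT 5dw, rests on this check.

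Alternatives were other pseudocounts and filters, median-ratio scaling, no trend, array weights, a replicate block, only the groups compared, each library left out, and without both NS libraries numbered 1. limma-voom on the recovered reads and leaving out both WT libraries numbered 3 were added after the data were seen. Transcript windows came from GENCODE M21 and promoters from RefSeq (GRCm38.p6).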

Additional observations from a re-analysis of the deposited data

How the results depend on the processing

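The counts of keratins called in the wounding comparisons moved by less than 1.5 times under every alternative, from 14 to between 11 and 15 in WT and from 13 to between 9 and 16 in Act. With the replicate number as a block, 14 and 13 were called, and 0 in each genotype comparison and in the interaction, so the pairing changed none of these counts. At an unadjusted p under 0.05 the block moved the interaction from 3 to 6, Act 5dw against WT 5dw from 0 to 1 and wounding in Act from 13 to 14. Between Act NS and WT NS, 1 keratin (Krt24) was called without the filter, with median-ratio scaling, without a trend, with array weights and without both NS libraries numbered 1, and leaving out 1 library gave 0 to 1. In the interaction 1 was called without both NS libraries numbered 1. The log2 ratio of Krt16 to Krt14 ranged from 0.18 to 0.47 when 1 library was left out and passed in 2 of these fits. Directions turned only for fold changes that were not called with all libraries in the fit. For Krt14 in WT they ranged from -1.53 to 0.0617 with 1 library left out. Krt16 in WT ranged from -1.04 to 0.50, and was 0.27 with median-ratio scaling. Krt23 ranged from -0.51 to 0.35 in WT and from -0.96 to 0.27 in Act with 1 library left out. It was -0.16 with array weights and -0.51 without both NS libraries numbered 1 in WT, and 0.0497 with median-ratio scaling in Act, where -0.96 was called without both NS libraries numbered 1 (adjusted p = 0.031). The cause was not tested. Depth limits the values of keratins near 0, such as Krt24, and the 2 or 3 pools per group limit all others. Fold changes of Krt8, Krt18 and Krt25 are not given because single libraries set their levels. Without a filter 51 keratins were fitted, and with the stricter filter of 5 RPKM 16.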
